A study of Mus musculus with 24 samples.

Results

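H3K4me2 regions found only in Prdm16 KO embryonic stem (ES) cells were examined. Overlapping H3K4me2 peaks of the 4 ES libraries were merged into 38049 regions on chromosomes 1 to 19, X and Y. Of these, 4468 (11.7%) had a peak in both KO lists and in neither wild-type list. These KO-only regions were chosen on the H3K4me2 peaks of ES cells, so their H3K4me2 in ES cells is a description here and was not tested. H3K4me1 in both stages and H3K4me2 in embryoid bodies (EB) were not used by the choice. The groups were Prdm16 KO ES cells and wild-type ES cells, and Prdm16 KO EB and wild-type EB at day 6, all on a C57BL/6 background. ES cells were kept on Matrigel with LIF in medium with serum and serum replacement, and EB in medium with serum. EB are aggregates in which ES cells differentiate. Each group was profiled by CUT&RUN, which releases fragments next to an antibody with a tethered nuclease, with antibodies to PRDM16, H3K4me1 and H3K4me2. Each of the 12 groups held 2 libraries, 24 in all, and the labels do not say whether the 2 came from separate cultures or KO clones, nor which part of Prdm16 was deleted. The spread behind each p-value is thus that between libraries and may be technical.

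H3K4me1 and H3K4me2 are mono- and dimethylation of lysine 4 of histone H3, laid down by the KMT2 family of methyltransferases. H3K4me1 is typical of enhancers, primed or active, and H3K4me2 is found at both enhancers and promoters. PRDM16 is a zinc finger protein with a PR domain, best known for its roles in brown fat, blood stem cells and the developing brain and face. CpG-rich promoters usually carry H3K4 methylation in ES cells.

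The H3K4me2 ES lists held 29138 and 32874 peaks in KO and 24600 and 22615 peaks in wild type, so both KO lists were longer. H3K4me1 lists were of like length in ES cells, with 14945 and 13901 peaks in KO, against 15435 and 12746 in wild type. In EB the H3K4me1 lists held 8943 and 5990 peaks in KO, against 14082 and 13260 in wild type, and the H3K4me2 lists held 15205 and 13818 in KO, against 14334 and 19246 in wild type. Read depth is unknown, and a peak list records only where a peak was called, so a missing peak and a weaker mark cannot be told apart. The titles place 20 libraries in 1 library series, while H3K4me2 ES KO replicate 2 and H3K4me2 EB wild-type replicate 2 belong to another, and PRDM16 ES KO replicate 1 and PRDM16 ES wild-type replicate 2 to yet another. PRDM16 peaks in ES cells numbered 586 and 499 in KO, against 331 and 191 in wild type, so more were called in KO, and KO and wild type are used here as the labels give them. Of 23 pluripotency genes, 9 and 7 had H3K4me2 within 2500 bp of either end in KO ES cells, against 6 and 6 in wild-type ES cells. Of 15 fibroblast or feeder markers, 7 had one in each of the 4 ES lists, and Pou5f1, Nanog and Sox2, defining genes of ES cells, had none in any of them. Neuroectoderm genes with a peak numbered 11 and 12 of 26 in KO ES cells, against 15 and 14 in wild-type ES cells, and trophoblast genes 5 and 6 of 16 in KO, against 8 and 8 in wild type. The EB lists did not have fewer pluripotency genes than the ES lists: 13 and 14 of 23 had a peak in KO EB and 10 and 14 in wild-type EB, with Pou5f1 in 3 of the 4 EB lists and Nanog in 2. Neuroectoderm genes numbered 13 and 10 in KO EB, against 4 and 6 in wild-type EB. Single genes went both ways. Tcl1 had a peak in all 4 ES lists and no EB list, and the reverse held for Fgf4, Klf2, Klf5, Prdm14, Tet1 and Tet2. Sox2 had no peak in EB either. Many housekeeping genes lacked a peak too. Of 15, the lists held 6 and 6 (wild-type ES), 7 and 5 (KO ES), 7 and 5 (wild-type EB) and 8 and 8 (KO EB). A missing peak at a marker gene thus says little about identity. The pluripotency counts run against what the labels ES and EB name, but do not settle it. The stages are used here only as labelled, in each ES and EB comparison too. The part of cell type makeup in the results was not tested.

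The promoters of 4 genes that lay inside high-scoring KO-only regions are shown because they differ in their content of CpG, the dinucleotide that separates the 2 main kinds of promoter. Each sequence is the 250 bases before an annotated transcript start of the gene, 5′ to 3′ on its strand, with each CpG in capitals. Sequences are from RefSeq (GRCm38.p6, which has the coordinates of mm10). At Fhit this start is an internal one, in a region 707714 bp from the nearer end of the gene. Dnah11 encodes an axonemal dynein heavy chain (chr12:118199044-118199293, minus strand), Ormdl2 a regulator of sphingolipid synthesis (chr10:128821630-128821879, minus strand), Prrg3 a membrane protein with a Gla domain (chrX:71962375-71962624, plus strand) and Fhit a dinucleotide hydrolase (chr14:10453459-10453708, minus strand).
Dnah11: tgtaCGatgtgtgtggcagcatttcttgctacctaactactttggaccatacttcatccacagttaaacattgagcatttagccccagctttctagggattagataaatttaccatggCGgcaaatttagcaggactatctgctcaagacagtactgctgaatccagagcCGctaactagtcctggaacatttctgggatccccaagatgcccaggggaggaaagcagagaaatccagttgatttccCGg
Ormdl2: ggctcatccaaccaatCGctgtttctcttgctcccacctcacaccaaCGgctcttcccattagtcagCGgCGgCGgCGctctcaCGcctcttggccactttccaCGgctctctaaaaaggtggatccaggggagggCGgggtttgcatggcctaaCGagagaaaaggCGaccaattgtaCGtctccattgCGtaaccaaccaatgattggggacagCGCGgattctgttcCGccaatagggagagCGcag
Prrg3: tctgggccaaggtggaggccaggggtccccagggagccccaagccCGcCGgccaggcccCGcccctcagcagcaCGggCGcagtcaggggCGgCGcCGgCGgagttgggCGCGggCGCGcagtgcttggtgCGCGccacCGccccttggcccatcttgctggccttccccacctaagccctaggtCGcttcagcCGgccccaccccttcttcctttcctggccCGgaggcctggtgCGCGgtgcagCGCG
Fhit: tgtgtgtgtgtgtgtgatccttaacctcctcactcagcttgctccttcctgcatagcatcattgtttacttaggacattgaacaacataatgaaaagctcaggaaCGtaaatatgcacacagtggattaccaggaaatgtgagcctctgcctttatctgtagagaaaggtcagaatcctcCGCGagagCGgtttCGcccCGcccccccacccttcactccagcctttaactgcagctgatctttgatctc
The stretches held 4 CpG at Dnah11, 17 at Ormdl2, 23 at Prrg3 and 6 at Fhit. The Ormdl2 stretch overlaps that of Sarnp, an mRNA export gene that starts on the other strand within the same KO-only region.

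KO-only regions also overlapped 11 hairpins of the RefSeq microRNA table, in 8 regions. The share of all regions that overlap a hairpin was not counted, so this number is a description only. Mature microRNAs of 2 of these regions are shown because more than 1 hairpin lies there, with the seed (bases 2 to 8) in capitals.
miR-144-3p: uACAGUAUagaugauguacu
miR-144-5p: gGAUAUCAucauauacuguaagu
miR-451a: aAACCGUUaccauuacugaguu
miR-3073a-5p: gUGGUCACaguuggcgccagcc
miR-3073b-5p: aUGGUCACaguggacaucaacc
Mir144 and Mir451a are microRNAs known from red blood cell precursors. The Mir144 hairpin lies in the region chr11:78071898-78073213 and that of Mir451a, which shares its place with Mir451b on the other strand, overlaps the end of it. Its H3K4me2 scores were 56.9 in KO replicate 1 and 64 in KO replicate 2, and it had no H3K4me1 peak in any list and no H3K4me2 peak in EB. Mir3073a and Mir3073b overlap each other on opposite strands of chr12:112106181-112109608, and their 5p products have the same seed. That region scored 137 and 238 in the KO lists. It had an H3K4me1 peak in ES KO replicate 2 (58.3) and EB KO replicate 1 (139) and none in wild type, while its H3K4me2 peaks in EB were in wild type, at 77.9 and 66.4.

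KO-only regions were mostly weak and narrow peaks of the KO lists. Their scores, the authors' value per peak, of a scale that the labels do not state, had a median of 91.2 (50.01 to 453) in KO replicate 1 and of 106 (50 to 530) in KO replicate 2. In regions with a peak in all 4 lists the KO medians were 245 and 310. Within the KO lists the KO-only regions stood at a median percentile of 25 and 28.6 by score. The lowest score in the lists is 50, and 969 KO-only regions (21.7%) had a lower KO score under 60. Just outside the rule, 4113 regions had a peak in both KO lists and in 1 wild-type list, and 857 of these (20.8%) had a wild-type score under 60. A wild-type peak lay within 1000 bp of 64 KO-only regions (1.43%) and within 5000 bp of 541 (12.1%). When all 4 lists were cut to the length of the shortest, from the top score down, 1659 regions were KO-only, and 6752 regions met the rule without KO replicate 2, the library of another series. The median width of KO-only regions was 1426 bp, against 904 bp for the 6369 regions in 1 KO list only, 1904 bp for regions in both KO and 1 wild-type list, 3261 bp for the 17396 regions in all 4 lists and 4904 bp for the 695 wild-type-only regions.

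**Figure D1:**
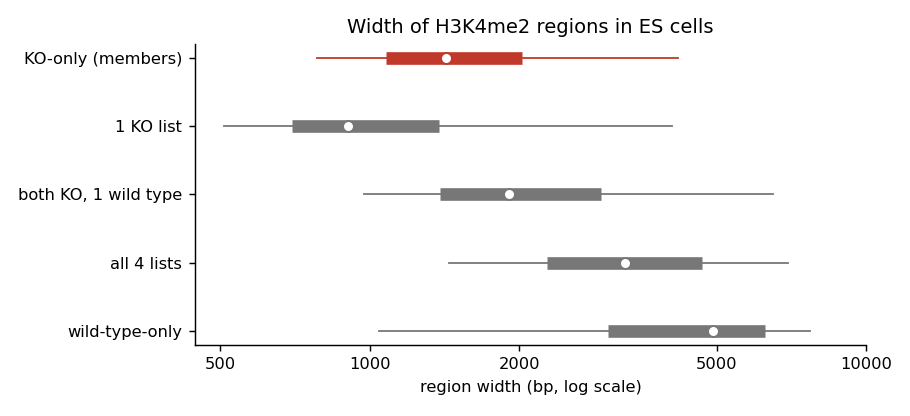
Width in bp (log scale) of H3K4me2 regions of ES cells by the lists that hold a peak, with the median (circle), the middle 50% (thick bar) and the 5th to 95th percentile (thin line). KO-only regions, median 1426 bp, lay between regions in 1 KO list (904 bp) and regions in all 4 lists (3261 bp).

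The KO-only regions lay mainly away from the ends of genes. Of them 605 (13.5%, 95% Wilson interval 12.6 to 14.6, counting error only) were within 2500 bp of an end of a protein-coding gene. This stood against 36.4% of all regions, 54.9% of regions in all 4 lists and 45.9% of wild-type-only regions. Regions in 1 KO list only were like the KO-only regions, at 12.9%. Over 50 kb from any gene end lay 1317 KO-only regions (29.5%), against 19% of all regions and 12.6% of regions in all 4 lists. Inside the span of a gene lay 2426 (54.3%), against 67.4% of all regions and 76.6% of regions in all 4 lists. Regions in 1 KO list only were again alike, at 29.3% over 50 kb away and 55% inside a gene. The gene table gives spans without exons, so no region is placed in an exon, intron or UTR. A KO-only region lay within 2500 bp of an end of 706 of 21887 protein-coding genes (3.23%) and in the span plus 2500 bp of 2137 (9.76%), whose median length was 73.6 kb, against 17.2 kb for all genes.

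The highest-ranking KO-only region lay over the start of Dnah11, with H3K4me2 scores of 409 and 437 in KO ES cells and no wild-type ES peak. In EB the same region had an H3K4me2 peak in all 4 lists, at 214 and 130 in KO, against 169 and 308 in wild type, and it had no H3K4me1 peak at either stage. The next regions lay in Rin3, a Rab5 exchange factor gene (361 and 433 in KO ES cells), 32803 bp from Slc7a12, an amino acid transporter gene (350 and 530), in Dglucy, encoding D-glutamate cyclase (326 and 396), and 21035 bp from Ppp4r3a, a subunit of protein phosphatase 4 (321 and 389). Of the 10 highest-ranking regions, 4, at Dnah11, Rin3, Dglucy and Ppp4r3a, lay on chromosome 12 beyond 98 Mb. Others in this set were at Dcaf12l2 on the X chromosome (453 and 371), 109687 bp from Abca1, the cholesterol efflux transporter (322 and 359), in Clvs1, which encodes clavesin (301 and 376), and 14395 bp from Vmn1r40, a vomeronasal receptor gene (317 and 341).

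At gene ends, high-ranking KO-only regions included Ormdl2 (247 and 307), Islr (243 and 270), Prrg3 (234 and 342), Copg1, a subunit of the COPI vesicle coat (356 and 270), and Gpr132, a G protein-coupled receptor gene (226 and 232). The 5520 bp region at the end of Copg1 also covers the start of Hmces, whose product protects abasic sites in DNA. These regions differed in the other lists. The Gpr132 region had H3K4me1 in all 4 ES lists, scoring 217 and 141 in KO, against 90.8 and 86.9 in wild type. Kcnv2, a potassium channel subunit gene (267 and 256 for H3K4me2), had no peak of either mark in any other list examined. The widest KO-only regions covered the transcription factor gene Atf4 (11597 bp, scores 119 and 155), a stretch 221479 bp from Irx3 (9789 bp, 106 and 103), part of Pknox2 (8553 bp, 137 and 96.4), and the ends of the RNase P subunit gene Rpp25 (8604 bp, 61.1 and 106) and of Eif2s2, a subunit of initiation factor eIF2 (8523 bp, 105 and 71.9).

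In ES cells H3K4me1, which the choice did not use, was found at more KO-only regions in KO than in wild type. It overlapped 1213 (27.1%) and 1112 (24.9%) of the 4468 regions in the KO lists, against 900 (20.1%) and 779 (17.4%) in the wild-type lists. Both KO libraries lay above both wild-type libraries. The mean was 26.0% ± 1.6 in KO and 18.8% ± 1.91 in wild type (SD, n = 2 each), a difference of 7.23 percentage points (two-sided exact permutation test, p = 0.333, the smallest that 2 against 2 libraries can give, and 0.417 after Benjamini-Hochberg adjustment over 5 comparisons). Without H3K4me2 ES KO replicate 2 in the choice of regions it was 6.52 points, and with equal list lengths 7.5 points. It was smaller with scores of 100 or more only (3.38 points) and with the higher-scoring 50% of each list (4.69 points). Over all 38049 regions the same difference was 0.125 points, and over regions other than KO-only ones it was -0.82 points. Regions in 1 KO list only also had more H3K4me1 in KO (17.8% and 17.7%, against 15.3% and 12.9% in wild type). Wild-type-only regions had less in KO (24.5% and 17.8%, against 38.4% and 27.9% in wild type), and for regions in all 4 lists the genotypes overlapped (34.5% and 33.4% in KO, against 38% and 33.9% in wild type). Most KO-only regions, 2700 (60.4%), had no H3K4me1 peak in any ES list, against 52.3% of all regions, and 378 (8.46%) had one in all 4, against 12.6% of all regions. H3K4me1 in both KO lists and no wild-type list was found at 165 (3.69%), against 2.13% of all regions, and the reverse at 36 (0.806%), against 2.09% of all regions.

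**Figure D2:**
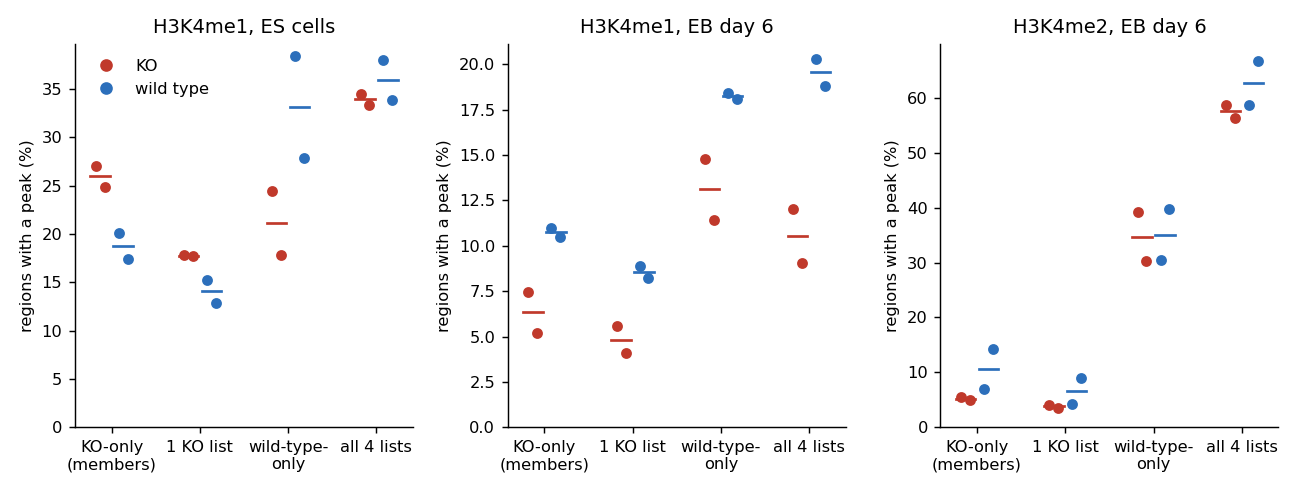
Share of regions (%) that overlap a peak in each library (points; lines are means of 2 libraries), KO left and wild type right, for KO-only regions, regions in 1 KO list, wild-type-only regions and regions in all 4 H3K4me2 ES lists. At KO-only regions H3K4me1 in ES cells was at 27.1% and 24.9% in KO, above 20.1% and 17.4% in wild type, while KO was the lower genotype for both marks in EB.

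The higher H3K4me1 share in KO ES cells was seen at weak and strong KO-only regions alike. When the regions were split into 5 groups of 893 or 894 by the lower of their 2 KO score ranks, both KO libraries were above both wild-type libraries in each group. In the lowest group the shares were 20.1% and 19.9% in KO, against 15.5% and 15.3% in wild type. In the highest group they were 32.6% and 31.4% in KO, against 23.7% and 20.6% in wild type. Width went with the level: of the 1144 KO-only regions over 2000 bp, 44.3% and 38% had H3K4me1 in KO, against 33.7% and 29.8% in wild type. Of the 839 regions of up to 1000 bp, 8.1% and 7.39% had it in KO, against 5.24% and 4.65% in wild type. With a fixed window of 1000 bp at the centre of each region the difference was 7.09 points. By position, the KO shares were 21.5% and 20.3% at gene ends, 30.4% and 27.8% inside genes away from their ends, and 25.7% and 23.5% between genes. The wild-type shares were 16.9% and 13.4%, 22.8% and 20%, and 18.6% and 16.2% at the same 3 kinds of position, so both KO libraries were higher in each.

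**Figure D3:**
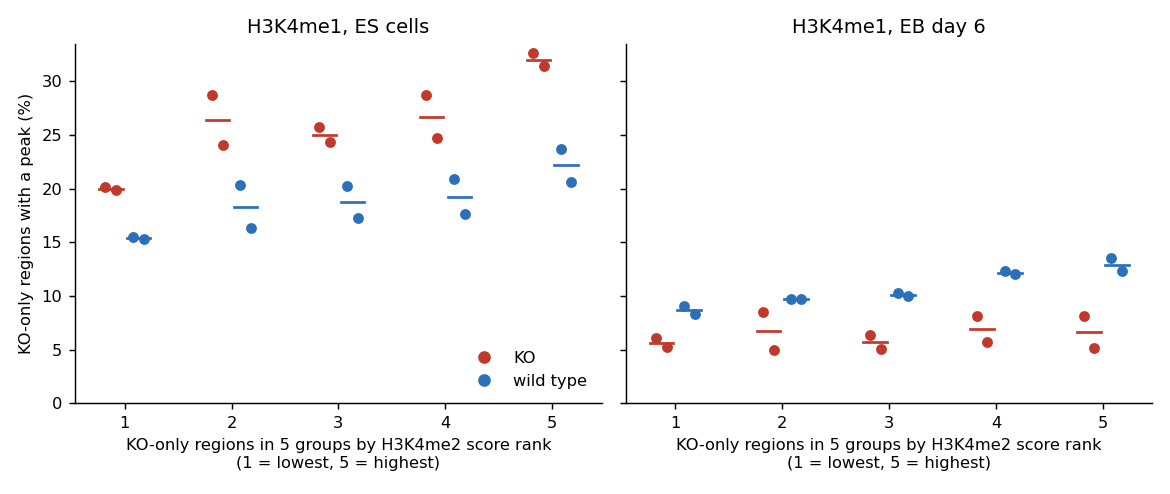
Share of KO-only regions (%) with an H3K4me1 peak in ES cells (left panel) and EB (right panel), with KO-only regions in 5 groups by H3K4me2 score rank. Points are libraries, KO left and wild type right, and lines are means. In ES cells the KO libraries lie above the wild-type libraries in each group, and in EB they lie below.

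KO-only regions were compared with regions in 1 KO list, read in the same libraries. Over the 8 H3K4me1 libraries the mean share was 15.5% of KO-only regions and 11.3% of regions in 1 KO list. The difference of 4.16 points (SD 2.91) was positive in 8 of 8 libraries (two-sided exact sign-flip permutation test, p = 0.00781, the smallest possible). All 8 libraries, 2 of each stage and genotype, read the same regions, so this p-value does not measure the spread between regions. KO-only regions were also wider, and with the fixed window of 1000 bp the difference was 3.83 points. They scored higher too, with a median lower KO score of 79.9, against a median of 69.5 for regions in 1 KO list. The H3K4me1 share was higher at KO-only regions of higher rank, and the classes were not matched by score. The mean of 15.5% stood against 21.4% for wild-type-only regions, a difference of -5.96 points (SD 7.77, exact sign-flip test, p = 0.0703). It was positive in 2 of 8 libraries, both from KO ES cells (27.1% against 24.5%, and 24.9% against 17.8%). In wild-type ES cells the shares were 20.1% against 38.4% and 17.4% against 27.9%, and in EB the difference was negative in both genotypes. The mean over the 8 libraries thus joins conditions of unlike sign. The mean difference was 0.905 points when only peaks of score 100 or more were used. It was 0.964 points when a peak had to cover 50% of a region, so its sign changed. The cause was not tested.

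Of the 165 regions with H3K4me1 in both KO lists and no wild-type list in ES cells, 18 lay on chromosome 12 beyond 98 Mb, as did 4 of the 10 named next. The region near Slc7a12 had H3K4me1 scores of 54.8 and 86.7 in KO ES cells. Regions in Tdrd9, a helicase gene of the piRNA pathway (79.5 and 202), in D430019H16Rik (100 and 57.6) and in Ptprn2, a phosphatase-like protein gene of secretory vesicles (162 and 132), lay on distal chromosome 12, with one 184615 bp from the zinc finger gene Sp8 (129 and 137). Elsewhere were Copg1 (59.1 and 63.4), Fhit (97.6 and 126), and regions 28880 bp from the cilia gene Ccdc39 (54.6 and 75.3), 70906 bp from the deubiquitinase gene Usp24 (123 and 150) and 90887 bp from Lsm6, a U6 snRNA-binding protein gene (137 and 120). The Fhit region holds an internal transcript start of the gene, with the sequence shown above. That region also had an H3K4me1 peak in EB wild-type replicate 1 (105).

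In EB the order of the genotypes was the reverse. H3K4me1 overlapped 333 (7.45%) and 233 (5.21%) of the KO-only regions in KO EB, against 491 (11%) and 467 (10.5%) in wild-type EB, so both KO libraries were lower. The mean was 6.33% ± 1.58 in KO and 10.7% ± 0.38 in wild type (SD, n = 2 each), a difference of -4.39 points (exact permutation test, p = 0.333, adjusted 0.417). The difference over all regions was -6.77 points, and the KO lists in EB were shorter. With lists cut to equal length it was -0.723 points. The KO effect in ES cells minus that in EB was 11.6 points (exact permutation of genotype within stage, p = 0.0556, the smallest that 36 assignments can give), and 6.32 points with scores of 100 or more. Over all regions the KO effect was 0.125 points in ES cells and -6.77 points in EB, so it was the lower in EB there too. No H3K4me1 peak in EB was found at 3658 KO-only regions (81.9%), against 74.3% of all regions. Peaks in both KO and neither wild-type EB list were found at 21 (0.47%), against 0.568% of all regions, and the reverse at 120 (2.69%), against 3.72% of all regions.

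H3K4me2 itself was rarely found at these regions in EB. It overlapped 244 (5.46%) and 219 (4.9%) of the KO-only regions in KO EB, against 315 (7.05%) and 638 (14.3%) in wild-type EB. Of all regions it overlapped 33.4% and 31.3% in KO EB, against 33% and 40.6% in wild-type EB. The wild-type library at 14.3% is that of another library series, and its list was the longest. The mean was 5.18% ± 0.396 in KO and 10.7% ± 5.11 in wild type (SD, n = 2 each), a difference of -5.48 points (exact permutation test, p = 0.333, adjusted 0.417). The difference over all regions was -4.44 points, and at KO-only regions it was -1.87 points without that library and -2.77 points with equal list lengths. In no EB list was H3K4me2 found at 3736 KO-only regions (83.6%), against 55.3% of all regions, and in all 4 it was found at 102 (2.28%), against 25.6% of all regions. KO-only regions had a mean share of 7.92% over the 4 EB libraries, against 5.23% for regions in 1 KO list, a difference of 2.69 points that was positive in 4 of 4 libraries. Set against wild-type-only regions, at 34.9%, the difference was -26.9 points and negative in 4 of 4 libraries. For both comparisons the exact sign-flip p was 0.125, the smallest that 4 libraries allow. The share differed by position: at gene ends 16.2% and 15.2% of KO-only regions had it in KO EB, against 18.7% and 29.8% in wild-type EB. Inside genes away from their ends it was 3.46% and 3.41% in KO EB, against 5.03% and 11% in wild-type EB, and between genes 4.09% and 3.17% in KO EB, against 5.42% and 12.7% in wild-type EB.

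Only 6 KO-only regions had H3K4me2 in both KO and neither wild-type EB list (0.134%, against 0.996% of all regions). They lay in Ak7, an adenylate kinase gene of cilia, where scores in EB were 84.8 and 102, at Clcn2, a chloride channel gene (114 and 96.4), 70187 bp from Pax2, a kidney and midbrain transcription factor gene (72.6 and 84.8), 6137 bp from Zfhx4 (102 and 52.2), 10225 bp from the histone gene H4bc24 (70.6 and 54.1) and 40094 bp from Tcf7l2, a Wnt pathway transcription factor gene (86.1 and 54.4). The reverse pattern was found at 122 (2.73%), against 2.57% of all regions. It included Dcaf12l2 (56.8 and 133 in wild-type EB), regions 10016 bp from Thoc3, a subunit of the THO complex (134 and 292), 86450 bp from Hes1, a Notch target (75.1 and 166), and 147459 bp from Tut7, a uridylyl transferase gene (86.5 and 273), and regions in Msra, a methionine sulfoxide reductase gene (68.1 and 155), and Cyp2j9 (117 and 277). That these regions had H3K4me2 peaks in KO in ES cells and in wild type in EB follows from how they were picked. Their share was near that over all regions. The pattern also needs a peak in wild-type EB replicate 2, the longest H3K4me2 list of EB and of another library series. Among the regions with H3K4me2 in all 4 EB lists were those of Dnah11, Ormdl2, Copg1, Clvs1 and Tasor, the last encoding a HUSH complex subunit (171 and 104 in KO EB, 250 and 479 in wild-type EB).

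In EB, H3K4me1 was more frequent at the KO-only regions that also had H3K4me2 there. Of the 732 KO-only regions with H3K4me2 in any EB list, 23.6% and 17.1% had H3K4me1 in KO EB, against 34.4% and 34.2% in wild-type EB. Of the 3736 with none, 4.28% and 2.89% had it in KO EB, against 6.4% and 5.81% in wild-type EB. Where H3K4me1 peaks did overlap KO-only regions, they were not weak for their lists. Their median percentile by score was 53.8 and 56.4 in the KO ES lists and 53.2 and 53.1 in the wild-type ES lists. H3K4me2 peaks of EB at KO-only regions stood lower, at 25 and 27.6 in KO, against 22.9 and 27.8 in wild type.

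PRDM16 peaks were rare at KO-only regions and at H3K4me2 regions in general. They overlapped 3 and 6 KO-only regions in KO ES cells, against 1 and 1 in wild-type ES cells, and 3 and 1 in KO EB, against 1 and 1 in wild-type EB. Of all regions they overlapped 0.536% and 0.442% in KO ES cells, against 0.365% and 0.284% in wild-type ES cells, and 0.276% and 0.26% in KO EB, against 0.223% and 0.478% in wild-type EB. The differences in share at KO-only regions were 0.0783 points in ES cells (exact permutation test, p = 0.333, adjusted 0.417) and 0.0224 points in EB (exact permutation test, p = 1, adjusted 1). Over all regions they were 0.164 and -0.0828 points, so the sign in EB was the opposite one.

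Along the chromosomes most KO-only regions were interleaved with other regions. The region after a KO-only region was another KO-only region in 13.2% of cases. A KO-only region came next in 13.9% of cases after a region in 1 KO list. After regions in both KO and 1 wild-type list it was 11.8%, after regions in all 4 lists 11.5% and after wild-type-only regions 7.05%. Another KO-only region lay within 50 kb of 27.4% of them, and the median gap to the next was 119511 bp. For the 4113 regions in both KO and 1 wild-type list the share within 50 kb and the median gap were 28.4% and 119095 bp. In 500 kb windows, 82 of 4387 held 5 or more KO-only regions, 473 (10.6%) in all. By chromosome, the KO-only share of regions ran between 9.76% on chromosome 7 and 16.7% on chromosome 12, with 14.7% on chromosome 8 (Wilson interval 13.3 to 16.3). The Y chromosome, with 9 regions in all, is too small to compare.

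Chromosome 12 beyond 98 Mb had the highest share of the stretches plotted by chromosome, with a limit chosen after its values were seen. There 124 of 436 regions (28.4%, Wilson interval 24.4 to 32.8) were KO-only, against 145 of 1173 (12.4%) on the rest of the chromosome. Wild-type-only regions were also more frequent there, at 6.19%, against 1.45% on the rest of the chromosome. Of 246 bins of 10 Mb with at least 50 regions, the median KO-only share was 11.7%, 10% of bins were below 7.87% and 10% above 16.6%. The highest was chromosome 12 between 100 and 110 Mb, at 31.9% (69 of 216). Next were chromosome 12 between 90 and 100 Mb (29%), chromosome 14 between 100 and 110 Mb (23.8%), chromosome 8 between 60 and 70 Mb (23%) and chromosome 12 between 110 and 120 Mb (22.4%).

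**Figure D4:**
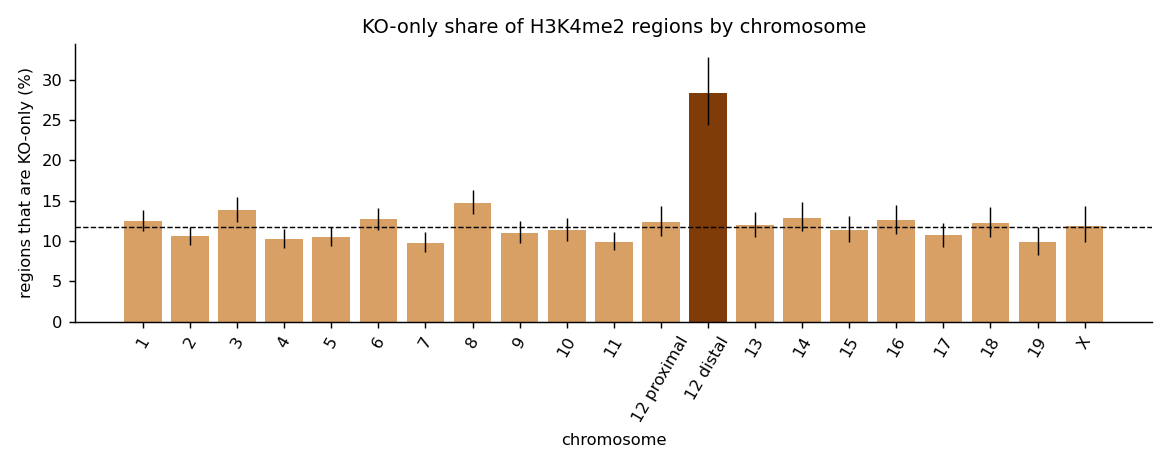
Share of H3K4me2 regions (%) that are KO-only by chromosome, with chromosome 12 split at 98 Mb into a proximal and a distal part. Bars start at 0, error lines are 95% Wilson intervals (counting error only) and the dashed line is the share over all regions, 11.7%. Distal chromosome 12 is at 28.4% and the proximal part at 12.4%.

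H3K4me1, which had no part in the choice, also had a larger share of its peaks on distal chromosome 12 in both KO libraries than in both wild-type libraries, at each stage. In ES cells 174 (1.16%) and 139 (1%) of the H3K4me1 peaks in KO lay there, against 84 (0.544%) and 66 (0.518%) in wild type. In EB it was 99 (1.11%) and 63 (1.05%) in KO, against 70 (0.497%) and 62 (0.468%) in wild type, although the KO lists were shorter. The ratio of the mean share in KO to that in wild type was 2.04 in ES cells and 2.24 in EB, and it was 1.01 and 0.924 on the rest of the chromosome (exact permutation test for the distal part, p = 0.333 in each stage, the smallest possible). H3K4me2 in EB differed less there, with 0.967% and 0.963% in KO, against 0.865% and 0.951% in wild type, a ratio of 1.06. Of the 124 KO-only regions of the stretch, 33.1% and 33.9% had H3K4me1 in KO ES cells, against 11.3% and 9.68% in wild-type ES cells. In EB it was 8.06% and 5.65% in KO, against 3.23% and 4.03% in wild type, so KO was the higher genotype here in both stages. For the 4344 KO-only regions elsewhere the ES shares were 27% and 24.6% in KO, against 20.4% and 17.7% in wild type, and the EB shares 7.44% and 5.2% in KO, against 11.2% and 10.6% in wild type. With distal chromosome 12 left out, the ES difference was 6.78 points and the EB difference -4.6 points. The stretch held 119 regions with a peak in all 4 H3K4me2 ES lists, the lists used by the choice. Their median score percentiles in these lists were 71.8 and 76.9 in KO, against 53 and 48.9 in wild type. Elsewhere the medians were 68.9 and 72.5 in KO, against 63.2 and 60.2 in wild type. In lists not used by the choice, the medians at those of the 119 with a peak were mixed. For H3K4me1 in ES cells they were 45.9 and 69.2 in KO, against 51 and 32 in wild type. For H3K4me2 in EB they were 57.6 and 51, against 53.3 and 65.2. For H3K4me1 in EB, on 11 to 17 regions a library, they were 63.9 and 65.7, against 38.7 and 40.3. The copy number of the stretch and the origin of the KO and wild-type lines were not analysed here.

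**Figure D5:**
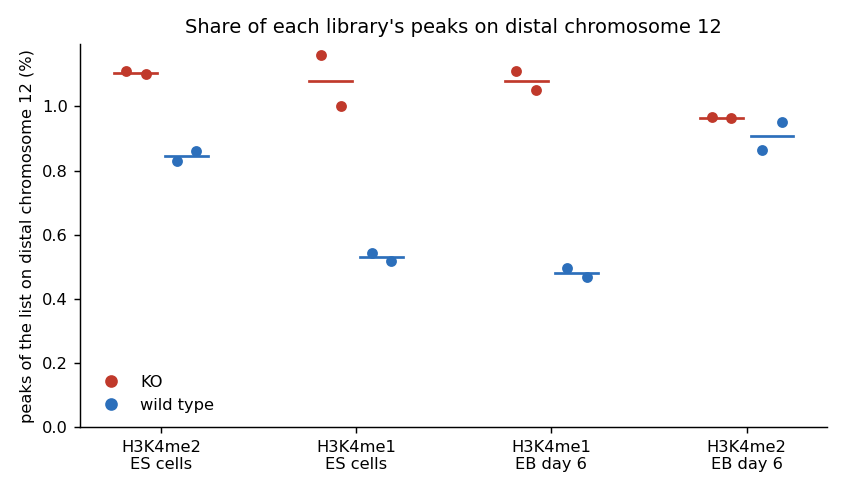
Share of each library's peaks (%) that lie on chromosome 12 beyond 98 Mb, KO left and wild type right (points are libraries, lines are means). For H3K4me1 the KO libraries are between 1% and 1.16% and the wild-type libraries between 0.468% and 0.544% in both stages, and for H3K4me2 in EB KO and wild type differ by a ratio of 1.06.

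The densest 500 kb windows lay on the same stretch. The top 2 windows held 11 KO-only regions each, one with Dicer1, the microRNA-processing enzyme gene, Clmn and Syne3 (11 of 17 regions) and one with Bdkrb1 and Bdkrb2, the bradykinin receptor genes, Atg2b, Gskip, Ak7 and Papola (11 of 27). Next was the window of the kinase gene Vrk1, with 9 of 16. In the Dicer1 window, H3K4me1 overlapped 3 and 4 of the KO-only regions in KO ES cells, against 0 and 1 in wild type. On chromosome 8 the windows of Nek1 and Sh3rf1 and of Fto and Irx3 held 8 of 16 each. By gene, Tenm3, a teneurin adhesion gene on chromosome 8, held the most, 10 among its 35 regions over 1297 kb. Sh3rf1, a scaffold of the JNK pathway, held 7 among 13, and Fto, an RNA demethylase gene, 7 among 16. At Fto H3K4me1 overlapped 3 and 3 of these in KO ES cells, against 0 and 2 in wild type. At Sh3rf1 it overlapped 5 and 4 in KO, against 4 and 4 in wild type. Frmd4b, Ptprn2 and Auts2 held 6 each. On chromosome 8 as a whole, 312 regions were KO-only. Of the H3K4me1 peaks of KO EB 6.92% and 6.19% lay on it, against 5.29% and 5.16% in wild type (exact permutation test, p = 0.333). The ratio of the mean shares, KO to wild type, was 1.26 there, 1.06 for H3K4me1 in ES cells and 0.976 for H3K4me2 in EB. At the 312 KO-only regions themselves H3K4me1 in EB was lower in KO, at 7.69% and 7.05%, against 10.3% and 9.62% in wild type.

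Most genes of the lists had no KO-only region at their ends, as was so of all genes. Within 2500 bp of a gene end, against 3.23% of all genes, a KO-only region was found at 2 of 23 pluripotency genes, 1 of 12 primed epiblast, 0 of 26 neuroectoderm, 1 of 40 neuronal adhesion and synapse, 1 of 22 primitive streak and mesoderm, 0 of 17 cardiac, 0 of 18 blood and endothelial, 1 of 17 endoderm, 0 of 16 trophoblast, 0 of 15 fibroblast or feeder, 2 of 15 germ cell, 0 of 15 brown fat, 0 of 19 H3K4 methylation enzyme, 1 of 17 PR domain, 0 of 39 Hox and 0 of 15 housekeeping genes. The pluripotency genes were Esrrb, a nuclear receptor gene (scores 64.9 and 97.8), and Nr5a2, which encodes a receptor that binds Pou5f1 regulatory DNA (141 and 85.2). These 2 regions lay 2389 and 2390 bp from a gene end, and only KO replicate 1 had a peak of its own within 2500 bp. Neither region had H3K4me1 or, in EB, H3K4me2. The others were the Wnt antagonist gene Sfrp2 (108 and 52.1), Ntm (131 and 133), Wnt3 (64.8 and 83.9), Afp, alpha-fetoprotein (101 and 129), Ddx4, the germ cell helicase Vasa (95.8 and 133), Kit, the stem cell factor receptor (70.4 and 56.2), and Prdm2 (133 and 149). Sfrp2 also had a peak within 2500 bp of an end in all 4 ES lists, wild type included. Most of the KO-only regions at these list genes were not at a start of the gene. The nearest annotated start lay 94412 bp away at Esrrb, 113458 at Nr5a2, 5846 at Sfrp2, 548585 at Ntm, 41309 at Wnt3, 16557 at Afp and 78182 at Kit. It lay inside the region at Ddx4, and no such distance was available for Prdm2. Kit had H3K4me1 in both KO ES lists (53.5 and 71.8) and in neither wild-type list. Over gene spans plus 2500 bp, against 9.76% of all genes, 11 of the 40 neuronal adhesion genes, with a median length of 925 kb, held 16 KO-only regions, among them Cntn5, Cntnap2, Csmd3 and Lsamp. Of the 19 H3K4 methylation and demethylation enzyme genes, 4 held 8 regions, namely Kmt2c, a methyltransferase of enhancers, Kdm1a and Kdm1b, demethylases of H3K4, and Smyd3. Over spans the PR domain genes also included Mecom and Zfpm1, the endoderm genes Hnf4a and Lama1, the primed epiblast genes Dnmt3a and Lef1, and the blood and endothelial genes Fli1 and Tek. Ncam1, Actn2, Elf5 and Ehmt1 were the only such genes of the neuroectoderm, cardiac, trophoblast and brown fat lists, and no Hox, fibroblast or housekeeping gene span held a KO-only region.

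Prdm16 itself held 2 KO-only regions, at chr4:154438024-154440419 and chr4:154549076-154550845, inside the gene and 196454 and 86028 bp from its annotated start. Their H3K4me2 scores in KO ES cells were 162 and 229 for the first and 129 and 90.7 for the second. Neither had an H3K4me1 peak in any list or an H3K4me2 peak in EB. Since the deleted part of the gene is not given, these peaks do not check the labels.

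Few promoters lay inside KO-only regions, and these were mixed in CpG content. Of 32851 RefSeq promoters, 250 bases before to 50 after each start, 367 of 335 genes lay wholly inside KO-only regions, against 10715 inside regions in all 4 lists. Their median was 9 CpG per 300 bases, and 30.5% had 15 or more, against 20 and 68.4% inside regions in all 4 lists, 19 and 63.6% inside wild-type-only regions, and 7 and 34.6% for all promoters. The GC content had a median of 55.7%, against 61.3% inside regions in all 4 lists and 52.7% for all promoters. The octamer ATGCAAAT, the letters bound by POU factors such as Pou5f1, was found on either strand in 11 of the 367 (3%). It was in 2.44% inside regions in both KO and 1 wild-type list and 1.52% inside regions in 1 KO list. Inside regions in all 4 lists it was in 1.18%, inside wild-type-only regions in 0.597% (2 of 335), and in 1.74% of all promoters. Some of these counts are small, and the differences were not tested. The AP-1 letters TGANTCA were in 6.81%, against 4.63% inside regions in all 4 lists, 3.58% inside wild-type-only regions and 7.81% of all promoters. In the same order, the letters GGGTGG were in 40.1%, against 38%, 46% and 31.5%, and AGATAA in 10.6%, against 5.68%, 5.97% and 11.2%. CACGTG was in 7.08%, against 9.42%, 8.66% and 7.15%, and CCGCGG in 8.99%, against 22.6%, 24.8% and 11.5%. These are matches of letters in the 300 bases, and no sequence outside promoters was read.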

How the data were processed

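Peak lists of 24 CUT&RUN libraries, deposited by the authors as 1 list per library on mm10, were used. Per the submitters' processing notes Bowtie2, SAMtools 1.5, bedtools, MACS2, deepTools and HOMER 4.10 were used. The score per peak is the authors' deposited value, at least 50, and neither labels nor headers state its scale, any control library or the handling of duplicates. Read depth is unknown, so no value here is corrected for it, and intervals cover counting error only. The 1 mitochondrial peak of each list was left out.

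H3K4me2 peaks of the 4 ES libraries that shared at least 1 bp were merged, and a region had a mark in a library where a peak shared at least 1 bp with it. Shares were compared with exact permutation tests over libraries, two-sided, with Benjamini-Hochberg adjustment over 5 comparisons. Classes of regions were compared within libraries by exact sign-flip tests. Intervals are Wilson intervals at 95%. Genes were 21887 protein-coding RefSeq genes of GRCm38.p6, without strand, and 319 of 319 genes of the 16 lists matched. Regions were named after the nearest gene: the 10 of highest rank (the lower of their 2 KO score percentiles) anywhere, at gene ends and in each pattern of the other marks, the 5 widest, those at Prdm16 and those at list genes, besides the 10 genes and 10 windows with most. Some genes that this rule names are not reported here. Other settings tried were the merging distance, the overlap, the score threshold, list length, library series, replicate block, window and each library left out. The regions and the lists were chosen with earlier results of these data known. Scripts were tested on simulated peak lists and run with Python 3.11.15, pandas 2.3.3, NumPy 2.4.6, SciPy 1.17.1 and matplotlib 3.10.9.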

Additional observations from a re-analysis of the deposited data

Results flagged for a closer look

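The KO effect on the share of KO-only regions with H3K4me1 had opposite signs in the 2 stages: it was 7.23 points in ES cells and -4.39 points in EB, a difference of 11.6 points (exact permutation of genotype within stage, p = 0.0556, the smallest possible). Both KO libraries were above both wild-type libraries in ES cells and below both in EB. The H3K4me1 lists of KO EB held 8943 and 5990 peaks, against 14082 and 13260 in wild-type EB, and with equal list lengths the difference between stages was 8.23 points and the EB term -0.723 points. Over all 38049 regions the KO effect was 0.125 points in ES cells and -6.77 points in EB, so it was lower in EB over all regions as well, and whether KO-only regions differ from all regions in this contrast was not tested.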

How the results depend on the processing

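The KO minus wild-type differences at KO-only regions kept their direction under all 18 alternatives each for H3K4me1 in ES cells (5.17 to 8.58 points with a library left out, 4.69 with the higher-scoring 50% of each list and 3.38 with scores of 100 or more), H3K4me1 in EB (-5.51 to -3.27, and -0.723 with equal list lengths) and H3K4me2 in EB (-9.1 to -1.87, and -1.69 within the main library series). Of these alternatives, the replicate block leaves each difference as it was and could not change its direction. For H3K4me1 the main library series repeats the setting without H3K4me2 ES KO replicate 2 (6.52 points in ES cells and -4.14 in EB). None of the differences can pass 0.05 with 2 libraries a group. The difference between stages kept its direction under 20 alternatives (9.2 to 13 with a library left out, 6.32 with scores of 100 or more). With the replicate number of the titles as a replicate block, the differences were 7.23, -4.39 and -5.48 points for the marks and 0.0783 and 0.0224 points for PRDM16, with exact sign-flip p of 0.5, the smallest possible, except 1 for PRDM16 in EB. The pairing by number changed no call, and 2 pairs are too few to check it. The number of KO-only regions was 2249 with the higher-scoring 50% of each list, 1659 with equal list lengths, and 5999 to 8774 with an H3K4me2 ES library left out of the rule (7068 without wild-type replicate 1, 8774 without KO replicate 1, 6752 without KO replicate 2). KO-only minus wild-type-only regions, H3K4me1, was -6.92 points with peaks within 1000 bp merged (exact sign-flip p = 0.0391). It was 0.964 when a peak had to cover 50% of a region and 0.905 with scores of 100 or more. With a library left out it was -8.94 to -0.789. Without H3K4me2 ES KO replicate 1 or 2 the exact sign-flip p was 0.0156. Without H3K4me1 ES KO replicate 1 and 2 it was 0.0469 and 0.0312, but these were the 2 libraries with a positive difference. The other comparisons between classes kept their direction: KO-only minus 1 KO list was 3.42 to 5.22 points for H3K4me1 and 1.84 to 3.95 for H3K4me2 in EB with a library left out, and KO-only minus wild-type-only was -30.2 to -12.3 for H3K4me2 in EB. With equal list lengths, KO-only minus 1 KO list was 2.2 points for H3K4me1, with scores of 100 or more 2.25, and with the higher-scoring 50% 2.04 for H3K4me1 and 4.77 for H3K4me2 in EB. PRDM16 rests on 10 or fewer regions: the ES difference was 0 points with 50% cover, -0.0301 with equal list lengths and 0.0448 to 0.112 with a library left out, and the EB difference was 0 with 50% cover, equal list lengths or scores of 100 or more, -0.0222 with the higher-scoring 50%, and 0 to 0.0448 with a library left out. The KO-only share of regions on distal chromosome 12 was 23% to 45.3% over its alternatives, and the share elsewhere moved with the rule too. As reported it was 28.4%, against 11.5% elsewhere. With equal list lengths it was 23%, against 5.25% elsewhere, and without H3K4me2 ES KO replicate 1 it was 45.3%, against 24.1% elsewhere. Within 1000 and 10000 bp of a gene end lay 10.2% and 31.2% of KO-only regions. The choices of distal chromosome 12, chromosome 8 and the fixed window were made after seeing the data. The causes were not tested.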
